A study of Rattus norvegicus with 6 samples.

Results

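The genes described here encode integrins, laminins and other proteins of the basement membrane. They were taken as every gene whose symbol begins with Itga, with Itgb and a digit, or with Lama, Lamb or Lamc and a digit, together with Nid1, Nid2, Hspg2 and Agrn. The rule used names, not measured values. It gave 39 genes of 14217 named genes on the array, measured by 58 probe sets. Of the 39 genes, 22 encode integrin subunits, 10 laminin chains and 4 the other basement membrane proteins. The other 3 encode proteins that are named after an integrin subunit but are not subunits themselves. Where a gene had several probe sets, it was represented by the one with the highest mean log2 value (all 6 arrays). No filter on low values was applied, so all 39 genes were tested. The integrin genes Itga2, Itga4, Itga10 and Itgb8 were not analysed here.

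Transcript levels came from Affymetrix Rat 230 2.0 arrays of 2 fractions of the digested renal inner medulla of male Sprague-Dawley rats, 3 arrays per fraction. The IMCD fraction, collected at low speed, was enriched in inner medullary collecting duct cells. The nonIMCD fraction held the cells left in the supernatant of the first. Per the labels all rats, in both fractions, had been given an intraperitoneal dose of 1 mg furosemide, a loop diuretic, 30 min before death, and the tissue was digested with collagenase B and hyaluronidase for 75 min at 37 °C. The study names 7 rats and 3 pairs of preparations, and age per the labels was 6 weeks for IMCD replicate 1 and 10 weeks for IMCD replicates 2 and 3 and for all nonIMCD arrays. Nothing says which arrays form a pair or how rats were shared among them, so p-values reflect only how arrays within a fraction spread, which may be technical.

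Laminins are trimers of an alpha, a beta and a gamma chain that polymerise under epithelial, endothelial and muscle cells. Nidogens and the proteoglycan perlecan tie the laminin network to that of type IV collagen, and agrin binds laminin as well. Integrins are dimers of an alpha and a beta subunit that hold cells to this sheet and signal from it, and a separate group of them serves leukocytes for adhesion to vessels and for phagocytosis. In the kidney, laminin with the alpha chain Lama5 and the integrin formed by Itga3 and Itgb1 are known from tubules and the glomerulus, and Itgb6 is known as an epithelial subunit.

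The fractions were separable by their cell markers. Principal cells, the water-transporting cells of the collecting duct, had 13 of 14 marker genes higher in IMCD. The other, the water channel gene Aqp2, named after its value was seen, did not pass. It averaged 52570 in IMCD and 43300 in nonIMCD, with overlapping arrays. All 13 endothelial and all 3 thin limb genes measured were lower, as were 15 of 17 leukocyte and 8 of 14 interstitial and pericyte genes. Summed intensities ranged from 242916 to 260433 on IMCD arrays and from 115242 to 149689 on nonIMCD arrays for the principal cell list, whose genes were thus measured in both fractions. The 3′ to 5′ log2 ratio of the rat control transcripts Actb, Gapdh and hexokinase, a measure of RNA integrity, was 0.69 ± 0.03 in IMCD and 1.35 ± 0.14 in nonIMCD (SD, n = 3 each). That ratio and the cell markers moved with every fraction difference that follows, and their part in these differences was not tested. Arrays of 1 fraction correlated at r = 0.956 to 0.966 across probe sets, and arrays of different fractions at r = 0.901 to 0.91.

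The comparison asked which adhesion and matrix transcripts set the collecting duct apart within the inner medulla. Of the 39 genes, 2 were higher in IMCD (Lama3 and Itgav), 18 were lower and 19 did not pass. Over all 14217 genes the shares called were 10.0% higher and 15.7% lower, against 5.13% higher and 46.2% lower among these, and 25.8% of all genes were called in either direction. By fitted size, 12 of the 39 genes were called lower by at least 2-fold (9.85% of all genes), 10 were called lower by at least 4-fold (4.49%), and 1 was called higher by at least 2-fold (4.60%). The median log2 difference of the 39 genes was -0.67, and that of all genes -0.09. The arrays of the fractions did not overlap for 28 of the 39 genes (71.8%), against 48.7% of all genes. A call means an adjusted p under 0.05 in limma's test on log2(intensity + 16), adjusted over all 31042 probe sets, and every difference is IMCD minus nonIMCD. In such mixed samples fewer cells of a type and less RNA per cell cannot be told apart.

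**Figure D1:**
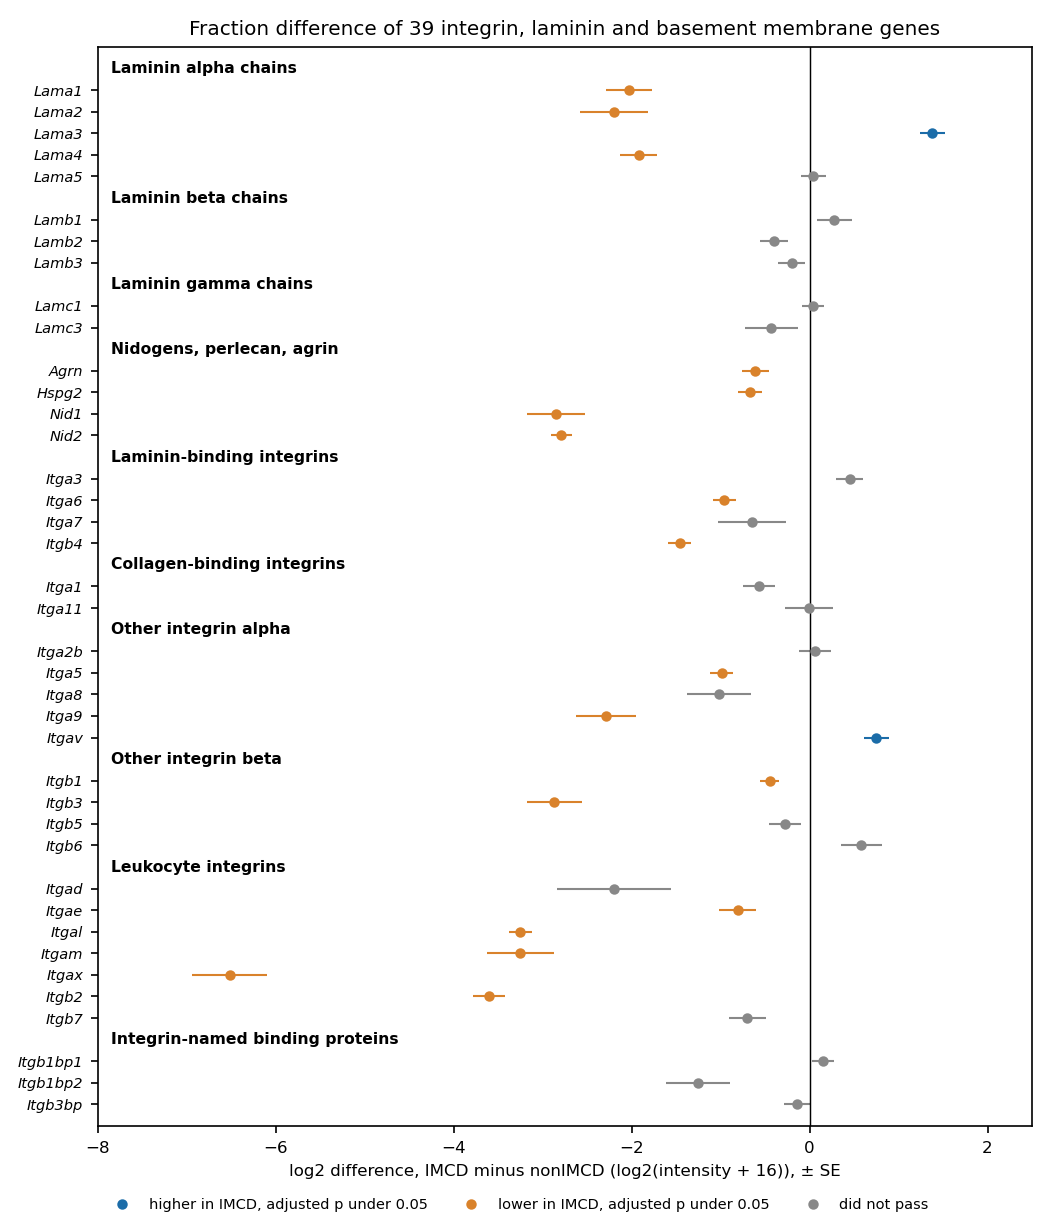
The log2 difference between fractions (x axis, IMCD minus nonIMCD, bars are ± SE) is drawn for each of the 39 genes (y axis), grouped by role. Lama3 and Itgav lie to the right of zero as called genes, and the 18 called genes on the left reach from Itgb1 at -0.45 to Itgax at -6.52.

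The balance of directions moved with the scaling of the arrays. With each array centred on its median, 5 of the genes were higher and 14 lower, and after quantile normalization 2 were higher and 17 lower, against 2 and 18 as deposited. These scalings moved the median difference of all probe sets, -0.10 as deposited, up by 0.29 and by 0.15 on the log2 scale. Itga3, Itgb6 and the integrin-binding protein gene Itgb1bp1 were the added higher genes under median centring. Median centring adds nearly the same amount to every gene, so the change of sign of Itga11, Itgb3bp, Itgb5 and Lamb3, which lay just below zero, follows from it. Itga11, Lama5 and Lamc1 changed sign after quantile normalization.

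**Figure D2:**
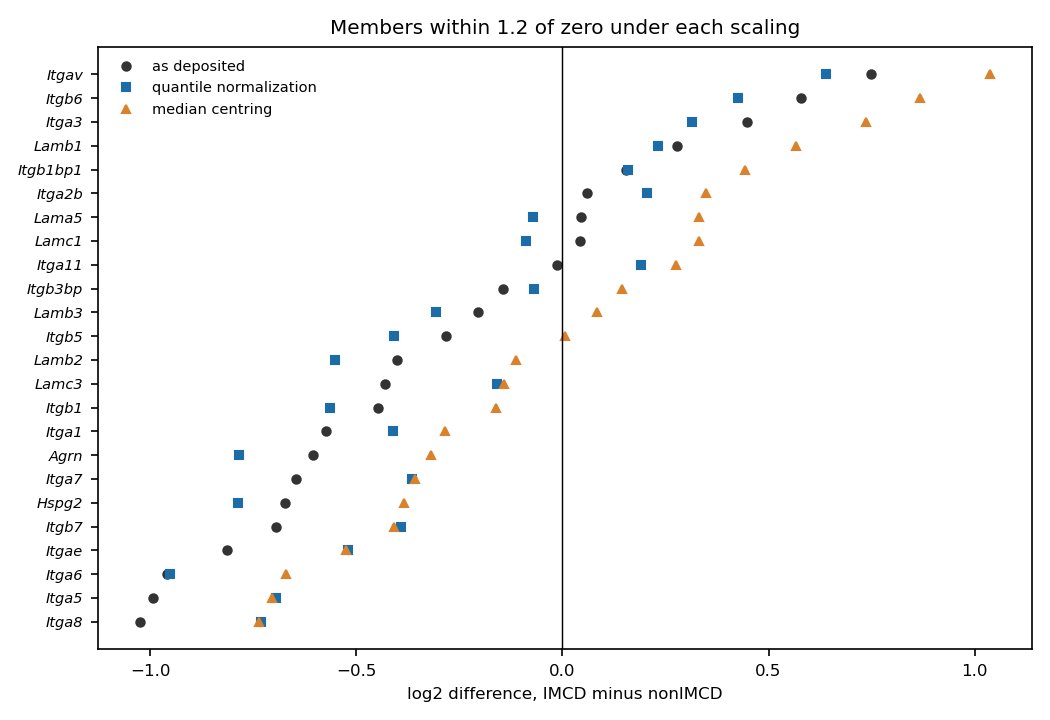
Each symbol is the log2 difference (x axis, IMCD minus nonIMCD) of 1 gene (y axis) as deposited, after quantile normalization and after median centring. The members with the largest deposited differences, in either direction, are not drawn. Median centring moved every gene drawn to the right, which put Itga11, Itgb3bp, Itgb5 and Lamb3 above zero. Itgav stayed above zero under all 3 scalings.

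Of the 5 laminin alpha chains, 3 were called lower and 1 higher in IMCD, and no beta or gamma chain passed. Lama3, the alpha chain of the laminin that anchors epithelia through hemidesmosomes, was 2.61 times as bright in IMCD. Lama1 and Lama4 were lower there, by 4.08-fold and 3.77-fold, and Lama2 by at least 1.96-fold. Lama5, the widespread alpha chain of tubule and vessel basement membranes, had nearly the same level in both fractions. Among the 10 chains measured there were 3 lower, 1 higher and 6 uncalled, against 15.7% lower and 10.0% higher over all genes.

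Lama3 had intensities of 1589, 1559 and 1258 on the IMCD arrays, against 556, 542 and 552 on the nonIMCD arrays. All IMCD arrays lay far above all nonIMCD arrays, whose values were nearly equal. The log2 difference was 1.38 ± 0.14 (SE, adjusted p = 0.00197), and it stayed between 1.31 and 1.67 and called in all 15 alternative settings. The 250 bases upstream of its annotated start, in RefSeq's GRCr8 assembly at chr18:3952517-3952766 (plus strand), are shown because this was the largest excess among the 39 genes. Capitals mark matches to TGANTCA, the letters bound by AP-1 factors, on either strand.
Lama3: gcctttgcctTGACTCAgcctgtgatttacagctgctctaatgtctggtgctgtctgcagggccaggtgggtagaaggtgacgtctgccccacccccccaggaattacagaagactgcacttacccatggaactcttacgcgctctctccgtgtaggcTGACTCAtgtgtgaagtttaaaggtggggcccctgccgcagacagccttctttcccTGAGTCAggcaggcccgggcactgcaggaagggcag
This window held 3 such matches, starting 240, 92 and 36 bases before the start, whereas 6.34% of all 33469 annotated promoter windows of this length held at least 1. Of the 30 members with a window in the table, 2 held one, the other being Itgax, which lay on the opposite side of the comparison. The letters are a description and not a site, and the annotated start need not be the one used in these cells.

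Lama4, the alpha chain of vascular basement membranes, had 66.9, 107.8 and 117.8 in IMCD, against 402.6, 415.2 and 392.7 in nonIMCD. The fractions did not overlap, and the difference was -1.92 ± 0.21 (SE, adjusted p = 0.00242). Lama1, known from tubule basement membranes of the developing kidney, had 78.3, 97.1 and 128.2 in IMCD, against 338, 592.5 and 470.2 in nonIMCD, again without overlap (-2.03 ± 0.26, adjusted p = 0.00424). Lama2, the muscle and interstitial alpha chain, had 42.8, 12.5 and 14.8 in IMCD, against 108.1, 143.8 and 234.8 in nonIMCD (-2.20 ± 0.38, adjusted p = 0.0122). Its IMCD values all lay under 78.4, the highest of the 3 probe sets for a bacterial transcript used as negative controls. NonIMCD was thus at least 1.96-fold brighter for Lama2, and the fitted size depends on the pseudocount (-2.88 and -1.35 with pseudocounts of 1 and 64). For Lama1 and Lama4, IMCD replicate 1 alone lay under that control. With pseudocounts of 1 and 64 Lama1 gave -2.19 and -1.67, and Lama4 -2.08 and -1.55.

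Lama5 averaged 5266 ± 380 in IMCD and 5115 ± 508 in nonIMCD (SD, n = 3 each). Its arrays overlapped, and the difference of 0.04 had a 95% interval of -0.29 to 0.38. Lamc1, the gamma chain of most laminins, averaged 5684 ± 435 and 5506 ± 117 in IMCD and nonIMCD (0.04, 95% interval -0.25 to 0.34), and Lamb1, its common beta partner, 3754 ± 477 and 3121 ± 625 (0.28, adjusted p = 0.387). Lamb2, the beta chain of vessel and glomerular basement membranes, did not overlap between fractions but did not pass, with 5581 ± 703 in IMCD and 7367 ± 827 in nonIMCD (-0.40, adjusted p = 0.132). Lamb3, the beta partner of Lama3, had 4370 ± 223 in IMCD and 5065 ± 702 in nonIMCD (-0.20, adjusted p = 0.385), so the called excess of Lama3 was not accompanied by one of Lamb3. Lamc3, a less widespread gamma chain, had 320.6 to 341.2 in IMCD and 273.4 to 596.7 in nonIMCD, and nonIMCD replicate 3 alone lay below the IMCD arrays (-0.43, adjusted p = 0.374). Without that array Lamc3 was called lower (-0.77, adjusted p = 0.0227).

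**Figure D3:**
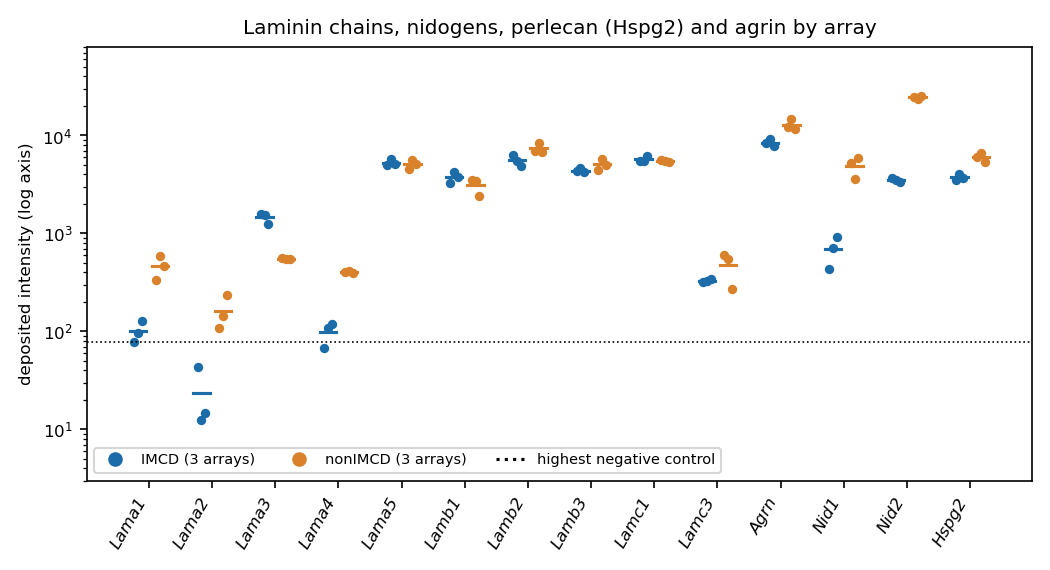
Points are the deposited intensities (log y axis) of each laminin chain, agrin, nidogen and perlecan gene (x axis) on 3 IMCD arrays and 3 nonIMCD arrays, bars are means, and the dotted line is the highest negative control at 78.4. Lama3 is the gene with all IMCD points far above the nonIMCD points, and both nidogens show wide gaps in the other direction.

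The proteins that link the laminin sheet were all lower in IMCD, but by unequal amounts. The nidogens Nid1 and Nid2, which bridge laminin and type IV collagen, were lower by 7.19-fold and 6.91-fold. Perlecan (Hspg2) and agrin (Agrn), both heparan sulfate proteoglycans, were lower by 1.59-fold and 1.52-fold. All 4 genes were called lower and had arrays without overlap, against 15.7% and 48.7% of all genes.

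Nid2 had 3697, 3539 and 3351 in IMCD, against 24668, 23406 and 25328 in nonIMCD. Values within a fraction were close together, and the difference of -2.79 ± 0.12 (SE, adjusted p = 0.000228) was called in all 15 alternatives. Nid1 had 433.4, 709.8 and 914.7 in IMCD, against 5272, 3626 and 5846 in nonIMCD, a wider spread in both fractions (-2.85 ± 0.33, adjusted p = 0.00287). Its dimmer probe set gave -1.09 and did not pass, with 321.2 ± 197 in IMCD and 639 ± 118 in nonIMCD, and the mean of both probe sets gave -1.97. The upstream window of Nid1 at chr17:93069036-93069285 (plus strand) is shown because the nidogens had the largest differences among the laminin, nidogen, perlecan and agrin genes. Capitals mark the GC box GGGCGG and the ETS core GAGGAA on either strand.
Nid1: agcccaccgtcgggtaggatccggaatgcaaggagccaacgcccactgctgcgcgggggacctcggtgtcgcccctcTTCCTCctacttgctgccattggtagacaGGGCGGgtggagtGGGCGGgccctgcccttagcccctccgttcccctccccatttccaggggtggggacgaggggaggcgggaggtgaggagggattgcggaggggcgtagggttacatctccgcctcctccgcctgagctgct
It held 2 GC boxes, 144 and 131 bases before the start, and 1 ETS core at 173 bases, none of them overlapping. Among all windows 30.5% held a GC box and 23.3% an ETS core. Of the 30 members with a window, 14 held a GC box and 13 an ETS core.

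Hspg2 had 3503, 4028 and 3682 in IMCD, against 5981, 6673 and 5302 in nonIMCD (-0.67 ± 0.14, SE, adjusted p = 0.0232). Agrn had 8293, 9264 and 7757 in IMCD, against 12070, 14884 and 11719 in nonIMCD (-0.61 ± 0.15, adjusted p = 0.0403). Both were lower on every IMCD array, but the calls were narrow. They held after quantile normalization, at -0.79 (adjusted p = 0.0163) for Hspg2 and -0.78 (adjusted p = 0.0221) for Agrn. Agrn did not pass without any 1 of the 6 arrays (-0.68 to -0.50, adjusted p 0.0611 to 0.115) and under median centring (-0.32, adjusted p = 0.192). Hspg2 did not pass without any 1 array other than nonIMCD replicate 3 (-0.73 to -0.59, adjusted p 0.0512 to 0.0812) and under median centring (-0.38, adjusted p = 0.11).

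Called markers of vessels and interstitium moved in the same direction as the nidogens and as Lama1, Lama2 and Lama4. The summed intensity of 13 endothelial genes was 16640 to 20594 on IMCD arrays and 71687 to 76462 on nonIMCD arrays, with all 13 lower and 0 under the negative control in IMCD. That of 14 interstitial and pericyte genes was 3823 to 4625 in IMCD and 25094 to 26690 in nonIMCD, with 8 lower and 6 not passing. Most of this gap was carried by Vim, which averaged 1406 in IMCD and 18640 in nonIMCD. Of the genes not passing, Acta2 (0.33) and Lum (0.27, under the negative control in both fractions) had positive differences and the others negative ones. The summed intensity of 3 thin limb genes was 4571 to 7194 in IMCD and 59569 to 82221 in nonIMCD, with Epha7 under the negative control in IMCD. Most of that gap was carried by Aqp1, which averaged 5698 in IMCD and 63190 in nonIMCD. The part of these cells in the matrix differences was not tested.

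Other basement membrane genes, from a list of 25, were more often called lower than higher in IMCD. Among 20 measured there were 11 lower, 1 higher and 8 uncalled, and the median was -0.98. Over all genes 15.7% were called lower and 10.0% higher. The largest called differences were those of the matricellular proteins Smoc2 (-2.93 ± 0.29, SE, adjusted p = 0.00181) and Sparc (-2.71 ± 0.16, adjusted p = 0.000426), of the laminin-associated glycoprotein Tinagl1 (-2.24 ± 0.27, adjusted p = 0.00359) and of the type IV collagen chain Col4a2 (-2.22 ± 0.13, adjusted p = 0.000434). The higher gene, named after its value was seen, was Frem2 (1.46 ± 0.20, adjusted p = 0.0049), part of a complex at the epithelial side of basement membranes. It had 1911, 2097 and 1397 in IMCD, against 658.6, 691.8 and 557.8 in nonIMCD, without overlap.

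Among the integrins that bind laminin, the hemidesmosome pair of Itga6 and Itgb4 was lower in IMCD. Itgb4, the beta subunit with the long cytoplasmic tail that reaches keratin filaments, was lower by 2.75-fold, and Itga6 by 1.94-fold in its brightest probe set. Itga3, a laminin receptor alpha subunit of kidney epithelia, was brighter on every IMCD array but did not pass. These 4 genes thus gave 2 lower calls and 0 higher ones.

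Itgb4 had 682.5, 785.8 and 839.3 in IMCD, against 2116, 2098 and 2183 in nonIMCD. The groups were widely apart, and the difference of -1.46 ± 0.13 (SE, adjusted p = 0.00137) was called in all 15 alternatives. Itga6 had 1605, 1703 and 1938 in IMCD, against 3430, 3249 and 3543 in nonIMCD (-0.96 ± 0.13, adjusted p = 0.00513). Its 3 dimmer probe sets did not follow, with differences of -0.38, 0.01 and -0.06 and overlapping arrays, and the mean over all 4 gave -0.34 (adjusted p = 0.0863). Itga3 had 5879, 7488 and 6457 in IMCD, against 4664, 5209 and 4597 in nonIMCD, a difference of 0.45 ± 0.15 (adjusted p = 0.0809) that passed under median centring (0.74, adjusted p = 0.0156). Itga7, known from muscle, had 83.4 to 200.6 in IMCD and 150.7 to 300.9 in nonIMCD and did not pass (-0.65, adjusted p = 0.286).

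Lama3 and Itgb4, which meet in hemidesmosomes, thus lay on opposite sides of the comparison. Trim29, 1 of 6 urothelial genes measured and the 1 that was called, was lower in IMCD (-2.70 ± 0.22, SE, adjusted p = 0.00103), with 221.8, 196.1 and 236.5 in IMCD, against 1607, 1892 and 1118 in nonIMCD. The summed urothelial list was 525 to 540 in IMCD and 1533 to 2326 in nonIMCD, a gap carried by Trim29. The other 5 genes did not pass and averaged 34 to 105.9 in IMCD and 66.4 to 128 in nonIMCD, close to the negative control in both fractions, with Upk1a and Upk2 under it on all IMCD arrays. The part of urothelial cells in the Itgb4 difference was not tested. Of 12 non-integrin laminin receptors measured, 3 were called, all lower, with a median over the list of -0.18. That share is near the 25.8% of all genes called in either direction, of which 15.7% were lower and 10.0% higher. The lower genes were the syndecans Sdc2 (-1.11, adjusted p = 0.00239) and Sdc3 (-0.54, adjusted p = 0.0341), and dystroglycan, Dag1 (-0.68, adjusted p = 0.0148).

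Among the remaining alpha subunits, which bind fibronectin, vitronectin, tenascin or related ligands, Itgav was higher in IMCD and Itga5 and Itga9 were lower. Itgav, the alpha subunit shared by several receptors that include activators of latent TGF-beta, was 1.68 times as bright. Itga5, the fibronectin receptor alpha subunit, was lower by 1.99-fold, and Itga9, which binds tenascin, was lower as well. Itga8 and Itga2b did not pass.

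Itgav had 6679, 6378 and 5865 in IMCD, against 3889, 4093 and 3296 in nonIMCD. The fractions did not overlap, and the difference was 0.75 ± 0.14 (SE, adjusted p = 0.0157). Both of its dimmer probe sets were higher too, by 1.00 and 1.11. The brightest probe set did not pass without IMCD replicate 1 (0.71, adjusted p = 0.0604) or IMCD replicate 2 (0.74, adjusted p = 0.0542). Its upstream window at chr3:89245132-89245381 (plus strand) is shown as that of the integrin gene with the called excess, with capitals at GC boxes and ETS cores as above.
Itgav: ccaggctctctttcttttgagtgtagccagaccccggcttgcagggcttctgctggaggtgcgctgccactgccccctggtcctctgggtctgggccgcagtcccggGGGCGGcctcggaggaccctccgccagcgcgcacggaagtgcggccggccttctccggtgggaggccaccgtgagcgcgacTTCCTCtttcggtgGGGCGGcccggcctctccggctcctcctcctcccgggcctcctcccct
The window held 2 GC boxes, at 143 and 48 bases before the start, and 1 ETS core at 62 bases, and 72% of its bases were G or C, against a median of 51.2% over all windows.

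Itgb6, which pairs with Itgav alone, had 8635, 8620 and 7224 in IMCD, against 4873, 4436 and 7439 in nonIMCD. The highest nonIMCD array, replicate 3, overlapped the IMCD range, and the difference of 0.58 ± 0.23 (SE, adjusted p = 0.134) did not pass. Without nonIMCD replicate 3 it was called higher (0.80, adjusted p = 0.0322), as it was under median centring (0.87, adjusted p = 0.037). It did not pass after quantile normalization (0.43, adjusted p = 0.264) or without any 1 other array (0.43 to 0.66, adjusted p 0.174 to 0.29). Itgb5, another partner of Itgav, had 4806, 5238 and 4298 in IMCD, against 5595, 7109 and 4898 in nonIMCD, with overlap and no call in its 3 probe sets (-0.28, -0.35 and -0.15). Itgb3, the partner of Itgav in vessels and of Itga2b in platelets, had 86.8, 60.7 and 140.4 in IMCD, against 705.8, 647.8 and 1001 in nonIMCD. It was lower by 7.34-fold (-2.87 ± 0.31, adjusted p = 0.00239). Its IMCD replicate 2 lay under the negative control, and the difference was -3.08 and -2.41 with pseudocounts of 1 and 64. Differences between these beta subunits were not tested.

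Platelet and megakaryocyte genes were followed beside Itgb3. Of 5 measured, 2 were lower and 3 did not pass, and their summed intensity was 390 to 655 in IMCD and 3628 to 4716 in nonIMCD. The platelet chemokine Pf4 had 198.3 to 236.7 in IMCD and 2912 to 4280 in nonIMCD. Gp9 and Gp5 lay under the negative control on all IMCD arrays and on 2 of 3 nonIMCD arrays each, and neither passed, so the gap in the sum was carried by Pf4. Itga2b, the platelet alpha subunit, had 1259, 1085 and 848.5 in IMCD, against 932.3, 1064 and 1030 in nonIMCD, with overlap (0.06, 95% interval -0.38 to 0.50). The part of platelets and megakaryocytes in the Itgb3 difference was not tested.

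Itga5 had 169.1, 164.4 and 176.7 in IMCD, against 315.7, 386.3 and 364.3 in nonIMCD (-0.99 ± 0.13, SE, adjusted p = 0.00454), with no overlap and a call in all 15 alternatives. Itga9 had 42.9, 117.8 and 46.6 in IMCD, against 333.4, 372.2 and 407.1 in nonIMCD (-2.29 ± 0.34, adjusted p = 0.00699), and IMCD replicates 1 and 3 lay under the negative control. The fitted size depends on the pseudocount, at -2.56 and -1.75 with pseudocounts of 1 and 64. A dimmer Itga9 probe set gave -0.94 without a call, and the mean of both gave -1.61 (adjusted p = 0.0118). Itga8, known from mesangial and other mesenchymal cells, had 157.1 to 233.1 in IMCD and 254.5 to 651.6 in nonIMCD, without overlap but with a wide nonIMCD spread (-1.02 ± 0.36, adjusted p = 0.101).

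Itgb1, the beta subunit shared by most matrix integrins, was lower in IMCD by a small amount. It had 18441, 18029 and 18758 in IMCD, against 24576, 24648 and 26156 in nonIMCD, without overlap. The difference of -0.45 ± 0.11 (SE, adjusted p = 0.0386) is 1.36-fold. It did not pass without any 1 of the 6 arrays (-0.46 to -0.42, adjusted p 0.0839 to 0.112) or under median centring (-0.16, adjusted p = 0.348). After quantile normalization it passed (-0.56, adjusted p = 0.0177). The second Itgb1 probe set gave -0.34 without a call. Collagen-binding alpha subunits gave 0 calls of 2 in limma's test, with 1 at an unadjusted p under 0.05. Itga1 had 667 to 844.6 in IMCD and 912.8 to 1275 in nonIMCD, without overlap (-0.57 ± 0.18, adjusted p = 0.076), and it was called lower without nonIMCD replicate 3 (-0.72, adjusted p = 0.0442). Itga11, a collagen receptor subunit of fibroblasts, lay under the negative control on all 6 arrays, so no difference could be measured.

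**Figure D4:**
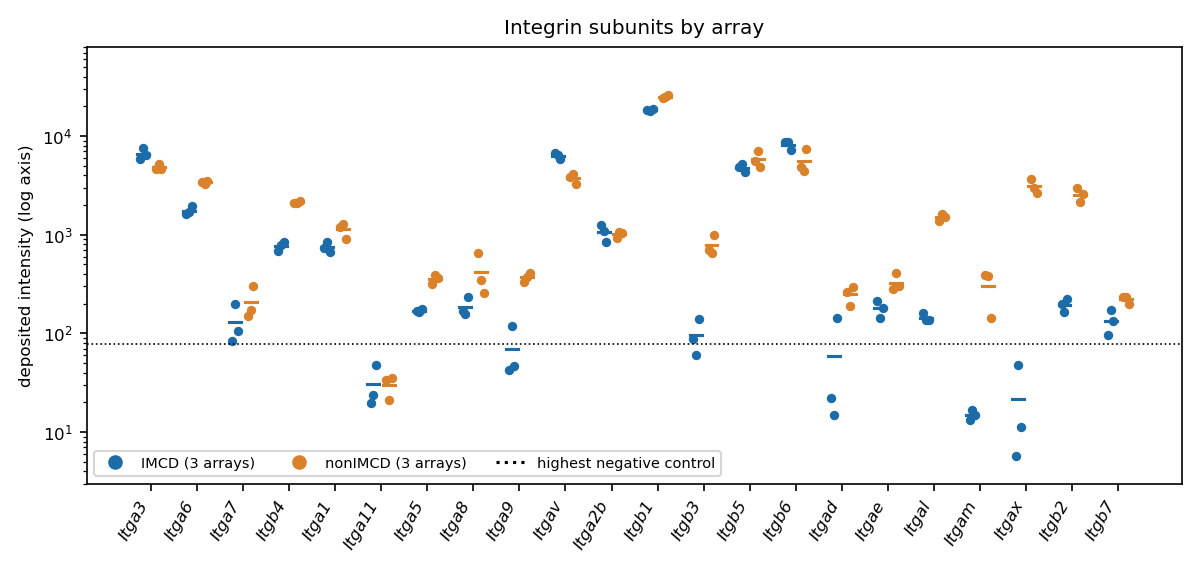
Points are deposited intensities (log y axis) of the 22 integrin subunits (x axis) on 3 IMCD and 3 nonIMCD arrays, bars are means, and the dotted line is the highest negative control at 78.4. Itga3, Itgav and Itgb6 have all or most IMCD points above the nonIMCD points, and Itgax, Itgb2, Itgal and Itgam on the right have the widest gaps in the other direction.

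The leukocyte integrins had the lowest median of the member groups, -3.25 on the log2 scale over 7 genes. Of these, 5 were lower in IMCD and Itgad and Itgb7 did not pass, and the arrays of all 7 did not overlap. The shares over all genes were 15.7% called lower and 48.7% without overlap. Itgb2, the common beta subunit, was lower by 12.1-fold. Its alpha partners Itgal of lymphocytes, Itgam of monocytes and neutrophils and Itgax of dendritic cells and macrophages were lower as well.

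Itgb2 had 198.4, 166.6 and 222.3 in IMCD, against 2945, 2124 and 2595 in nonIMCD (-3.60 ± 0.18, SE, adjusted p = 0.000333). Itgal had 159.4, 135.9 and 137.8 in IMCD, against 1394, 1617 and 1519 in nonIMCD (-3.25 ± 0.13, adjusted p = 0.000204). Both genes stayed above the negative control in IMCD, and their arrays were far apart. Itgax had 5.7, 47.6 and 11.2 in IMCD, against 3708, 2958 and 2625 in nonIMCD, and Itgam had 13.2, 16.7 and 14.9, against 390.7, 378.9 and 143.2. The IMCD values of both lay under the negative control, so nonIMCD was at least 39.1-fold brighter for Itgax and at least 3.53-fold for Itgam. Their fitted differences, -6.52 ± 0.42 (adjusted p = 0.000531) and -3.25 ± 0.38 (adjusted p = 0.0032), run from -7.60 to -5.23 and from -4.13 to -2.14 with pseudocounts of 1 and 64.

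The upstream windows of Itgam, at chr1:192089342-192089591 (plus strand), and Itgax, at chr1:192149799-192150048 (plus strand), are shown together because these genes lie close together and share the beta partner and the direction. Capitals mark GC boxes, ETS cores and AP-1 letters on either strand.
Itgam: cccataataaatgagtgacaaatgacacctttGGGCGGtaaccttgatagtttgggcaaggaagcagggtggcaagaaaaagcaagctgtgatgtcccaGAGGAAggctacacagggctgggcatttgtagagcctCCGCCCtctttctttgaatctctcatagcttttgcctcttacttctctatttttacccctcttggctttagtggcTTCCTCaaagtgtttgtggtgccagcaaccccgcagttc
Itgax: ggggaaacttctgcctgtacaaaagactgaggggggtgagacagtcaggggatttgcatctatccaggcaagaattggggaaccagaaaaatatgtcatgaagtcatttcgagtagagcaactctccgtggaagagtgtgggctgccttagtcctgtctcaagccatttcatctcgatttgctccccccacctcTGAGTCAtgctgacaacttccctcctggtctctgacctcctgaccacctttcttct
Itgam held 2 ETS cores, 151 and 39 bases before the start, and 2 GC boxes at 218 and 114 bases, with no overlap between them. Itgax held 1 match to the AP-1 letters at 56 bases and none to the other motifs searched, which says only that these letters were not in this window. The TATA box TATAAA was searched too and was found in 12.9% of all windows and in those of Itgb7 and Lama4 among the members.

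Itgae, the alpha subunit of lymphocytes that reside in epithelia, had 212.9, 143.1 and 182.1 in IMCD, against 278.9, 405.8 and 299 in nonIMCD (-0.81 ± 0.21, SE, adjusted p = 0.0436). This call was lost without any 1 of the 6 arrays (-0.94 to -0.66, adjusted p 0.0631 to 0.113), under median centring (-0.53, adjusted p = 0.129) and after quantile normalization (-0.52, adjusted p = 0.157). Its partner Itgb7 had 96.9 to 171.3 in IMCD and 199.5 to 236.5 in nonIMCD (-0.70 ± 0.21, adjusted p = 0.0705), and it was called lower without IMCD replicate 2 (-0.87, adjusted p = 0.0478). Itgad, a further partner of Itgb2, had 22, 14.8 and 141.7 in IMCD, against 263.7, 191.4 and 296 in nonIMCD (-2.20 ± 0.64, adjusted p = 0.059). IMCD replicate 3 stood apart from the other IMCD arrays, which lay under the negative control. Without it Itgad was called lower (-2.94, adjusted p = 0.00396), but the IMCD values left were all under that control. Itgad did not pass without any 1 other array (-2.37 to -1.76, adjusted p 0.113 to 0.16). Its fitted size depends on the pseudocount, at -2.73 and -1.48 with pseudocounts of 1 and 64.

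Leukocyte markers moved with these subunits. Of 17 measured, 15 were lower, 1 did not pass and the B-cell gene Cd79b, named after its value was seen, was higher (1.09, adjusted p = 0.00422), and the median was -5.77. Their summed intensity was 6310 to 6845 on IMCD arrays and 142203 to 156527 on nonIMCD arrays, with Aif1 and Cd3g under the negative control in IMCD. The part of leukocyte number in the integrin differences was not tested.

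Integrin ligands were called in both directions. Among 22 measured from a list of 25 there were 10 lower in IMCD, 3 higher and 9 uncalled, and the median was -0.86. Over all genes 15.7% were called lower and 10.0% higher. The largest differences were those of the growth factor Tgfb1 (-3.06 ± 0.12, SE, adjusted p = 0.000204), the matricellular protein Ccn2 (-3.06 ± 0.23, adjusted p = 0.000803), the endothelial and leukocyte counter-receptor Icam2 (-2.75 ± 0.21, adjusted p = 0.000867) and tenascin C, Tnc (-2.62 ± 0.46, adjusted p = 0.0121). The IMCD values of Tnc lay under the negative control, so nonIMCD was at least 3.72-fold brighter. The 3 higher genes, named after their values were seen, are cell surface ligands of integrins. Vcam1 had 8991, 7155 and 9133 in IMCD, against 1751, 1667 and 2204 in nonIMCD (2.16 ± 0.18, adjusted p = 0.001). Icam1, a ligand of the Itgal and Itgb2 dimer, had 16152, 17316 and 16176 in IMCD, against 9001, 9833 and 9636 in nonIMCD (0.80 ± 0.12, adjusted p = 0.0065). E-cadherin (Cdh1), a ligand of the Itgae and Itgb7 dimer, differed by 1.12 ± 0.11 (adjusted p = 0.00205). Icam1 and Cdh1 were thus higher in the fraction in which Itgal, Itgb2 and Itgae were lower, whereas the counter-receptor Icam2 was lower there too.

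Cytoplasmic partners of integrins were called lower more often than higher. Among 24 measured there were 8 lower, 1 higher and 15 uncalled, and the median was -0.36. Over all genes 15.7% were called lower and 10.0% higher. The largest were Fermt3, the kindlin of blood cells (-4.87 ± 0.63, SE, adjusted p = 0.00426), the parvins Parvb (-2.63 ± 0.18, adjusted p = 0.000595) and Parvg (-2.33 ± 0.28, adjusted p = 0.0032), and Lims2 (-2.09 ± 0.22, adjusted p = 0.00221). The IMCD values of Parvg lay under the negative control, a difference of at least 2.87-fold, as did those of Fermt3 on 2 of 3 arrays. Lims1, named after its value was seen, was the higher gene (0.54 ± 0.14, adjusted p = 0.0442). The related genes Parva (0.36, adjusted p = 0.0991), Fermt2 (-0.36, adjusted p = 0.136) and Ilk (-0.36, adjusted p = 0.0987), which act at focal adhesions in many cell types and were named after their values were seen, did not pass.

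The 3 members named after an integrin subunit without encoding one gave no call in limma's test of their brightest probe sets. In that test 1 of these probe sets had an unadjusted p under 0.05. Itgb1bp1, a regulator that binds the Itgb1 tail, averaged 2611 ± 112 in IMCD and 2348 ± 157 in nonIMCD (SD, n = 3 each), a difference of 0.15 (adjusted p = 0.425), whereas its dimmer probe set was called lower (-0.63, adjusted p = 0.0211). Itgb3bp, a centromere protein gene, differed by -0.14 (adjusted p = 0.555). Itgb1bp2, a muscle protein gene, had 29.7 to 72.8 in IMCD, all under the negative control, and 81.6 to 178.2 in nonIMCD (-1.25, adjusted p = 0.0608), and it was called lower without IMCD replicate 1 (-1.56, adjusted p = 0.041).

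For 13 of the 39 genes more than 1 probe set was present. Over all 31042 probe sets 8.58% were called higher in IMCD and 13.4% lower (22.0% either way). Itgav was the gene whose probe sets were all called. The 2 dimmer probe sets of Lama5 disagreed with each other, at -1.17 without a call and 1.16 with one, against 0.04 in the brightest, and the called one lay under the negative control on all 6 arrays. The second Lamc1 probe set gave 0.39 without a call, and the second Lama4 probe set -1.18 without a call. For Itga7, Itga8, Itgb5 and Itgb3bp no probe set was called.

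**Figure D5:**
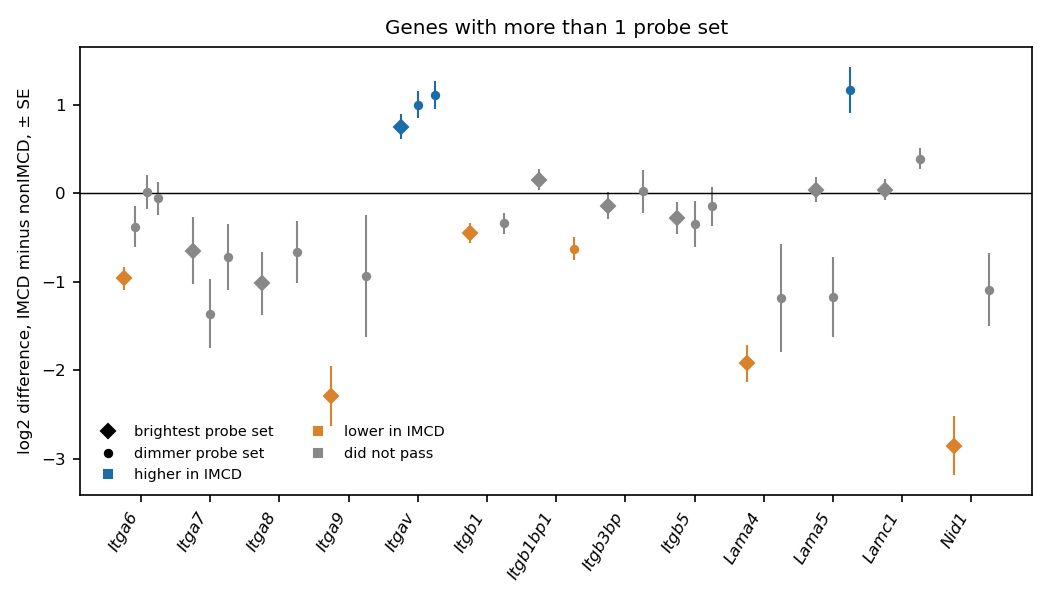
Log2 differences between fractions (y axis, IMCD minus nonIMCD, ± SE) are shown for every probe set of the 13 genes (x axis) that have more than 1, with diamonds for the brightest. The Itgav probe sets lie together above zero, while those of Itga6, Lama5 and Nid1 spread apart.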

How the data were processed

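The deposited table held 31099 probe sets on 6 arrays. Its values are intensities on a linear scale, already scaled by the authors, as the values show: each array's 2% trimmed mean lay at 1000.3 to 1000.4. Software and settings: not given in the sources used here. A difference is therefore relative to an array's average brightness, and array number limits precision. The 57 control probe sets were left out and 31042 were tested. The platform annotation gave 20826 of them 1 gene symbol, 436 several and 9780 none, and 20758 symbols were found by identifier in RefSeq's GRCr8 annotation, with 0 changed.

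Intensities were analysed as log2(value + 16), which understates differences between dim signals. The IMCD minus nonIMCD difference was fitted by limma 3.58.1 (R 4.3.3; lmFit, eBayes) with no covariate and two-sided p-values, Benjamini-Hochberg adjusted over all probe sets, and the fit was tested on simulated data. Errors of differences are SE, and 95% intervals are from the fit. A fold against a fraction wholly under the highest negative control (78.4) is a bound: the other fraction's geometric mean over that value.

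The members and lists were chosen with earlier results of these data known. All members were named, and of other lists the largest called differences (up to 4 per pathway list), with exceptions stated. Upstream windows came from RefSeq (GRCr8, 250 bases, 30 of 39 members matched).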

Additional observations from a re-analysis of the deposited data

How the results depend on the processing

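In 15 alternatives (pseudocounts of 1 and 64, median centring, quantile normalization, dim probe sets left out, other rules for the probe set of a gene, a replicate block, an intensity trend, and each array left out) the count of called members was 15 to 26, against 20, and the lower count 13 to 22, against 18. The higher count of 2 became 5 under median centring and 4 with the intensity trend, and ran from 1 to 3 without 1 array. Of 20 called members 13 kept their direction and their call in every alternative that held them: 12 lower and Lama3. The other 7 were Agrn, Hspg2, Itga6, Itgae, Itgav, Itgb1 and Lama2, and 0 called members changed sign. Same-numbered arrays deviated together only weakly (r = 0.04 to 0.06, against -0.04 to 0 for other numbers, under the 0.1 set for pairing), although 6 of 6 arrays were closest to their own number. With the replicate block 15 members were called, 2 higher and 13 lower. The 5 calls lost there were those of Lama2 (adjusted p = 0.0574), Hspg2 (0.0503), Agrn (0.0528), Itgb1 (0.0846) and Itgae (0.123).

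The sign changed for 8 uncalled members near zero. Under median centring the differences became 0.28 (Itga11), 0.15 (Itgb3bp), 0.01 (Itgb5) and 0.08 (Lamb3), and after quantile normalization 0.19 (Itga11), -0.07 (Lama5) and -0.09 (Lamc1). Itga11 gave 0 with a pseudocount of 64. Without 1 array the range was -0.26 to 0.15 for Itga11, -0.07 to 0.21 for Itga2b, -0.03 to 0.11 for Lama5 and -0.02 to 0.08 for Lamc1. Itgb1bp1 gave -0.24 as a mean of its probe sets, and Itgb3bp 0.02 in its single-transcript probe set. The cause of these changes was not tested. Among the probe sets called in each scaling, those higher in IMCD made up 39% (deposited), 67% (median centring) and 52.1% (quantile normalization). Leaving out dim probe sets kept 35 members. Signal near the negative controls limits the size of the differences of Itgam, Itgax and Lama2, whose IMCD arrays all lay under the highest control. It also limits those of the called genes Itga9, with 2 such IMCD arrays, and Itgb3, Lama1 and Lama4, with 1 each.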
